A study of Mus musculus with 15 samples.

Results

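The mucosal mast cell genes Mcpt1, Mcpt2 and Kit, named by symbol as 2 proteases and 1 receptor of mast cells, are 3 of the 52844 genes to which the estimated counts of the series were summed. All 3 passed the filter on low counts, which kept 14968 genes for testing. The material was jejunal epithelial cells of CC027/GeniUnc mice, a Collaborative Cross strain, in 5 groups of 3 libraries. PBS mice received PBS by gavage in the weekly doses and in week 4 and no challenge. All other mice were sensitized with crude peanut extract, 2 mg weekly for 3 weeks and 5 mg in week 4. Of these, the sensitized controls had no challenge, and the challenged mice received 12 mg of peanut extract and were killed 30, 60 or 120 min later. The epithelium was shaken off a 4 cm piece of jejunum after 75 min in EDTA and DTT, so the material is what came off, with any other cells in it. Each library was taken as 1 mouse, because its title carries its own number, and replicate numbers here pair nothing. Challenge of PBS mice, or gavage of sensitized mice without peanut, was not analysed here, so peanut challenge and handling cannot be told apart.

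Mast cells store serine proteases in granules and release them, with histamine and lipid mediators, when antigen crosslinks IgE on their high-affinity receptor. The mucosal type sits within and just under the gut epithelium and carries the chymases of the mucosal kind, while the connective tissue type carries tryptases, Mcpt4, Cma1 and Cpa3. Mcpt1 encodes mouse mast cell protease 1, a chymase that reaches the blood during intestinal anaphylaxis and serves there as a marker of mucosal mast cell release. Mcpt2 encodes its close relative mouse mast cell protease 2. Kit encodes the receptor tyrosine kinase for stem cell factor, the product of Kitl, on which mast cells depend for survival, but Kit is also made by interstitial cells of Cajal and by some innate lymphoid and epithelial cells.

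Mcpt1 (ENSMUSG00000022227.5) lies at chr14:56017971-56020384 and Mcpt2 (ENSMUSG00000022226.6) at chr14:56042041-56044642 of GRCm38, both on the plus strand with 5 exons, in the chymase and granzyme cluster. The genes stand 21656 bases apart, and their coding sequences are 738 and 732 bases long. The second exon of each is shown because the similarity of the genes bears on how well their reads can be told apart. Both lines are reference sequence on the plus strand, at chr14:56018561-56018711 and chr14:56042701-56042851, and capitals mark the 16 of 151 bases that differ.
Mcpt1 exon 2: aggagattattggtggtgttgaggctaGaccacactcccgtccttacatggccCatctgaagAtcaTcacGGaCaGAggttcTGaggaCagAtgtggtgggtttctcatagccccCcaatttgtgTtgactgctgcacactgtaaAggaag
Mcpt2 exon 2: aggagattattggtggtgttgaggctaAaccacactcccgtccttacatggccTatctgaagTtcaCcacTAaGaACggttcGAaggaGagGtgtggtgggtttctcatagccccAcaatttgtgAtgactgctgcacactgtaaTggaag
Over the exons of equal coding length, 485 of 597 bases were identical (81.2%), with 1, 16, 37 and 58 differing bases in exons 1 to 4. Of the 984 stretches of 31 bases in the Mcpt1 transcript, 34 also occur in that of Mcpt2, and 6.71% occur in any of the 8 related genes compared. Reads that match both genes would be divided by estimation, which leaves fractions, as for 2 Kit transcripts (347.277 and 344.512 reads in PBS replicate 1). The estimated reads of Mcpt1 and Mcpt2 were whole numbers in every library (243 and 99 in PBS replicate 1), so no such division was seen. The alleles that CC027 carries here were not analysed, and all stretches are those of the reference transcripts.

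Reads of Mcpt1 were present in every library and varied widely within each group. Estimated counts of Mcpt1 were 243, 64 and 195 in the PBS libraries and 37, 279 and 107 in the sensitized controls, from library totals of 15661513 to 22691349. After challenge they were 204, 58 and 111 (30 min), 91, 60 and 197 (60 min) and 69, 40 and 27 (120 min). As CPM (counts scaled to a common library total, with TMM factors), Mcpt1 stood at 13.2, 3.63 and 10.1 in PBS mice and at 1.90, 15.0 and 7.56 in sensitized controls. Its level was 8.18, 3.66 and 5.54 CPM 30 min after challenge, 4.94, 3.22 and 13.1 CPM after 60 min, then 3.25, 2.13 and 1.22 CPM after 120 min. High and low libraries occurred together in PBS mice, sensitized controls and mice at 60 min, whereas the 3 libraries at 120 min were all low. They lay below all libraries at 30 min, as 10.1% of all genes tested did in that comparison, but overlapped the sensitized controls, whose first replicate stood at 1.90 CPM. The counting interval of the lowest library (0.802 to 1.77 CPM, 95% Poisson interval) and that of the highest (13.3 to 16.9 CPM) cover counting error only.

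Mcpt2 followed the same libraries at a lower level. Its counts were 99, 10 and 73 in PBS mice, 19, 89 and 51 in sensitized controls, 99, 28 and 32 (30 min), 23, 16 and 80 (60 min) and 26, 26 and 11 (120 min). In CPM these were 5.38, 0.567 and 3.77 in PBS mice, 0.974, 4.79 and 3.60 in sensitized controls, and 3.97, 1.77 and 1.60 at 30 min. They were 1.25, 0.859 and 5.33 at 60 min and 1.22, 1.39 and 0.496 at 120 min. The libraries at 120 min lay below those at 30 min, as did 10.1% of all genes tested. They overlapped PBS replicate 2, sensitized control replicate 1 and replicates 1 and 2 at 60 min. With 10 counts in the library with the fewest, the 95% Poisson interval of that value ran from 0.272 to 1.04 CPM.

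Kit (ENSMUSG00000005672.12, chr5:75574916-75656722 of GRCm38, plus strand, 21 exons) had more reads and less spread. Its counts were 696, 366 and 588 in PBS mice, 486, 493 and 467 in sensitized controls, 877, 395 and 487 (30 min), 470, 491 and 646 (60 min) and 439, 404 and 381 (120 min). Its CPM values were 37.8, 20.8 and 30.4 in PBS mice, 24.9, 26.6 and 33.0 in sensitized controls, 35.2, 24.9 and 24.3 (30 min), 25.5, 26.4 and 43.0 (60 min) and 20.7, 21.5 and 17.2 (120 min). All 3 libraries at 120 min lay below all sensitized controls and below all libraries of the other challenge times, while PBS replicate 2 lay within their range. Among all genes tested, 13.3% lay without overlap below the sensitized controls at 120 min, 10.1% below 30 min and 9.78% below 60 min, so for Kit this order is shared with many genes.

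**Figure D1:**
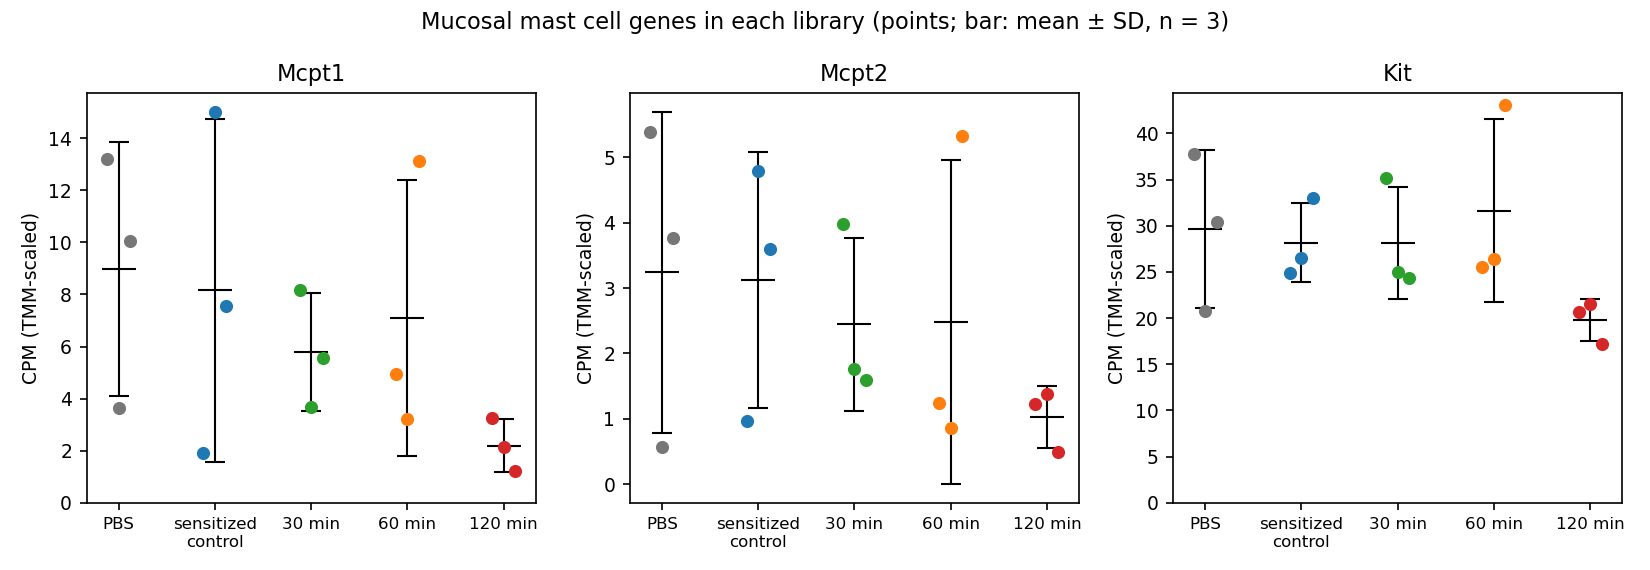
CPM (TMM-scaled, linear axes) of Mcpt1, Mcpt2 and Kit in each of 15 libraries by group, with the mean and SD of 3 libraries as bars. Mcpt1 ran from 1.90 to 15.0 CPM among the sensitized controls alone, and the Kit libraries at 120 min sit at 17.2 to 21.5 CPM, below all libraries but PBS replicate 2 at 20.8.

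Group means of Mcpt1 were 8.97 ± 4.88 CPM (SD, n = 3) in PBS mice, 8.16 ± 6.59 in sensitized controls, 7.10 ± 5.29 at 60 min, 5.80 ± 2.27 at 30 min and 2.20 ± 1.02 at 120 min. In this order from high to low, neighbouring groups overlapped except at the last step, from 30 to 120 min. Mcpt2 means were 3.24 ± 2.45 CPM (SD, n = 3), 3.12 ± 1.95, 2.48 ± 2.47, 2.45 ± 1.32 and 1.04 ± 0.474 in the same order of groups, and again only the last step was without overlap. Kit means were 31.6 ± 9.86 CPM (SD, n = 3) at 60 min, 29.6 ± 8.55 in PBS mice, 28.1 ± 4.27 in sensitized controls, 28.1 ± 6.10 at 30 min and 19.8 ± 2.32 at 120 min. Here too the last step, from 30 to 120 min, was the only one between groups whose libraries did not overlap. Of all genes tested, 10.1% lay without overlap lower at 120 than at 30 min, so this step is shared with many genes.

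Between genes, levels are compared as TPM, a transcript abundance per length that is scaled to a common total. Mean TPM over the 15 libraries was 7.60 for Mcpt1 (1.67 to 20.7), 4.89 for Kit (3.28 to 6.73) and 2.76 for Mcpt2 (0.652 to 6.34). Kit, a longer transcript, thus had more reads than Mcpt1 but a lower mean level per length. The TPM of Kit at 120 min was 4.43, 4.07 and 3.28, which lay below the sensitized controls at 5.51, 6.04 and 4.83 but overlapped PBS mice, 30 min and 60 min. Replicate 3 at 60 min had the highest Kit CPM of all libraries (43.0) but a Kit TPM of 4.24, under the median of 4.73. That library had the smallest TMM factor (0.768) and the largest share of mitochondrially encoded reads (33.2%, against 13.8% in the library with the least). Without the TMM factors, its Kit level was 33.0 CPM. The libraries at 120 min, at 20.8, 21.5 and 17.2 CPM, still lay below every sensitized control (24.9 to 28.1). They also lay below every library at 30 min (24.4 to 38.6) and at 60 min (26.8 to 33.0). TPM and unscaled CPM show the same libraries on other scales and are not separate evidence. The share of all genes without overlap was not computed on either scale.

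The spread between libraries separated the proteases from Kit. The highest library exceeded the lowest 12.4-fold for Mcpt1 and 10.9-fold for Mcpt2 but 2.51-fold for Kit, with coefficients of variation over 15 libraries of 70.3%, 72.8% and 25.9%. Within single groups the highest-to-lowest ratio ran from 2.24 to 7.92 for Mcpt1, from 2.49 to 9.48 for Mcpt2 and from 1.25 to 1.82 for Kit. The biological coefficient of variation that edgeR estimated between mice of a group was 0.590 for Mcpt1, 0.674 for Mcpt2 and 0.208 for Kit, beside 0.260 as the common value. Of all genes tested, 91.3% had a smaller one than Mcpt1, 94.4% than Mcpt2 and 51% than Kit. The proteases had fewer reads than most genes: mean CPM stood at percentile 37.5 for Mcpt1, 25.8 for Mcpt2 and 64.7 for Kit. Genes of like level were not compared.

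Sensitization alone was asked about by setting the sensitized controls against PBS mice. No member passed the test, and no gene at all did (0% of 14968 called by edgeR's quasi-likelihood test at an adjusted p of 0.05, 1.42% at an unadjusted p under 0.05; DESeq2 called 6 genes). Log2 fold changes were -0.14 ± 0.71 (SE) for Mcpt1, -0.06 ± 0.81 for Mcpt2 and -0.08 ± 0.24 for Kit, each with an adjusted p of 1 by edgeR. The direction of each turned when single libraries were left out, for Mcpt1 from -0.95 to 0.33 on the log2 scale. By an exact two-sided permutation test of log2 (CPM + 0.5), p was 0.7 for Mcpt1 and 1 for both others, where 3 against 3 libraries cannot go under 0.1.

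Challenge was examined at each time against the sensitized controls. At 30 min the log2 fold changes were -0.49 ± 0.71 (SE) for Mcpt1, -0.34 ± 0.81 for Mcpt2 and 0.00 ± 0.24 for Kit. The corresponding values at 60 min were -0.21 ± 0.71, -0.34 ± 0.82 and 0.17 ± 0.24. None passed (lowest adjusted p 0.809 by edgeR). Replicate 1 at 30 min had the highest CPM of each member in its group, and stromal and endothelial markers at 233 CPM. Leaving out 1 library at a time, the values at 30 min ran from -0.96 to 0.32 for Mcpt1 and from -0.88 to 0.13 for Mcpt2. At 30 min 0% of all genes were called (5.04% at an unadjusted p under 0.05, and 6 genes by DESeq2). At 60 min 0.00668% were called (12.6% at an unadjusted p under 0.05, and 189 genes by DESeq2). The SE of each protease at these times exceeded its estimate. With an SE of 0.71 to 0.82 on the log2 scale, a change of 1.5-fold could not be told from none. Larger changes in either direction could be missed too.

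At 120 min the proteases stood lowest. The log2 fold change against the sensitized controls was -1.89 ± 0.75 (SE) for Mcpt1 (adjusted p = 0.218, edgeR), -1.59 ± 0.85 for Mcpt2 (adjusted p = 0.353) and -0.51 ± 0.24 for Kit (adjusted p = 0.280). No member passed, beside 1.26% of all genes called in this comparison. Before adjustment Mcpt1 and Kit had p-values under 0.05, as did 17.7% of all genes. The Mcpt1 estimate rested in part on sensitized control replicate 2, the library with the most Mcpt1: without it the value was -1.09 and the adjusted p by edgeR 0.532. For Mcpt2 the value without that library was -1.13 (adjusted p = 0.620, edgeR). With Mcpt1 and Mcpt2 summed to 1 feature, so that the assignment of reads between them no longer matters, the log2 fold change was -1.80 ± 0.78 (adjusted p = 0.254, edgeR). For Kit the value without sensitized control replicate 3 was -0.38, and with a correction for transcript length it was -0.72 (adjusted p = 0.176, edgeR).

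**Figure D2:**
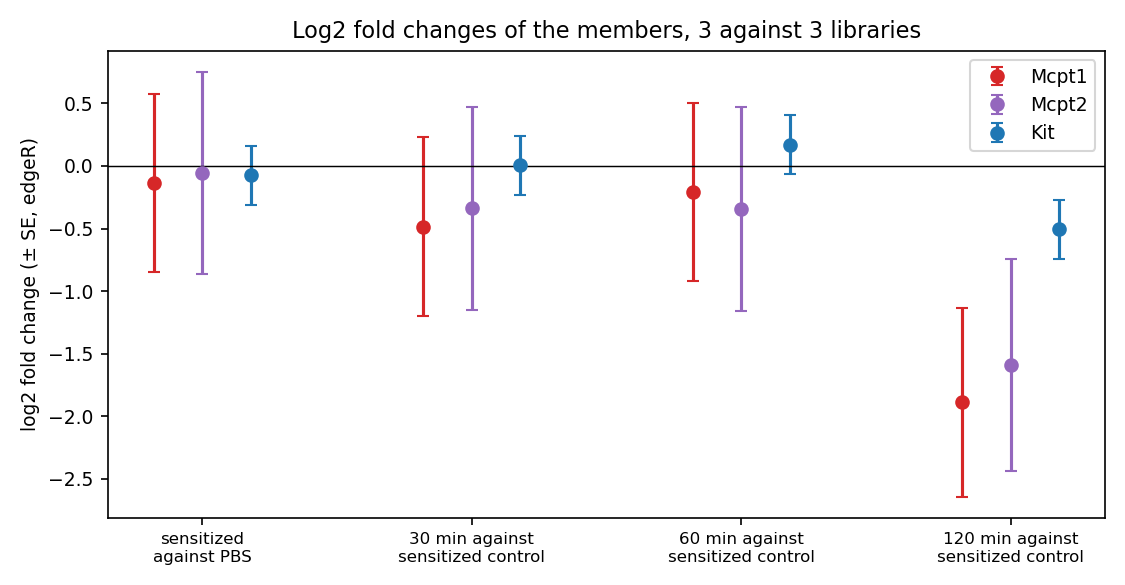
Log2 fold changes of Mcpt1, Mcpt2 and Kit with their standard errors from edgeR for sensitized control against PBS and for each challenge time against sensitized control, 3 libraries against 3. All 3 members lie furthest below 0 at 120 min (-1.89, -1.59 and -0.51), and none passed an adjusted p of 0.05.

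Set against the earlier challenge times, 120 min gave similar values. Against 60 min the log2 fold changes were -1.68 ± 0.75 (SE) for Mcpt1 (adjusted p = 0.241, edgeR), -1.25 ± 0.85 for Mcpt2 (adjusted p = 0.437) and -0.68 ± 0.24 for Kit (adjusted p = 0.145, and 0.0728 by DESeq2), with 1.12% of genes called. Against 30 min they were -1.40 ± 0.75, -1.25 ± 0.84 and -0.51 ± 0.24 (adjusted p = 0.351, 0.468 and 0.278, edgeR), with 1.01% called. These comparisons share the libraries at 120 min with each other and are not separate evidence. Tested jointly over the 3 times, the members had adjusted p-values of 0.399, 0.590 and 0.316 by edgeR, while 0.521% of genes passed.

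Over all challenged libraries, the members did not separate from the controls. Averaged over the 3 times, the log2 fold change from sensitized controls was -0.86 ± 0.56 (SE) for Mcpt1, -0.76 ± 0.64 for Mcpt2 and -0.11 ± 0.19 for Kit (adjusted p = 0.620, 0.715 and 0.869, edgeR), and 0% of genes were called (10.5% at an unadjusted p under 0.05; DESeq2 called 172). By exact permutation of 9 challenged against 6 unchallenged libraries, the difference of mean log2 (CPM + 0.5) was -0.69 for Mcpt1, -0.52 for Mcpt2 and -0.14 for Kit (two-sided p = 0.187, 0.273 and 0.455, adjusted over the 3 genes 0.409, 0.409 and 0.455). Against the 3 sensitized controls only, the exact permutation p was 0.464, 0.382 and 0.645.

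The members varied together from library to library. Over 15 libraries, Pearson's r of log2 (CPM + 0.5) was 0.915 between Mcpt1 and Mcpt2 (permutation p = 1e-05, the smallest that 100000 resamples can give, adjusted p = 6e-05 over 6 relations). It was 0.862 between Mcpt2 and Kit (permutation p adjusted 6e-05) and 0.813 between Mcpt1 and Kit (permutation p adjusted 0.00038). Spearman's rho was 0.904, 0.836 and 0.796 for the same pairs (permutation p adjusted 6e-05, 0.00066 and 0.00092). Leaving out the 2 libraries farthest from the median of the first gene gave r of 0.887, 0.80 and 0.861 in that order. With values centred on group means, so that group differences did not enter, r was 0.930, 0.899 and 0.729. The estimated reads of Mcpt1 and Mcpt2 were whole numbers in every library, so no division of reads between them was seen. Whole reads assigned to the wrong gene were not tested for beyond the count of shared stretches. Values of 1 library share its scaling: on log2 (TPM + 0.5) the 3 r were 0.895, 0.712 and 0.692.

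**Figure D3:**
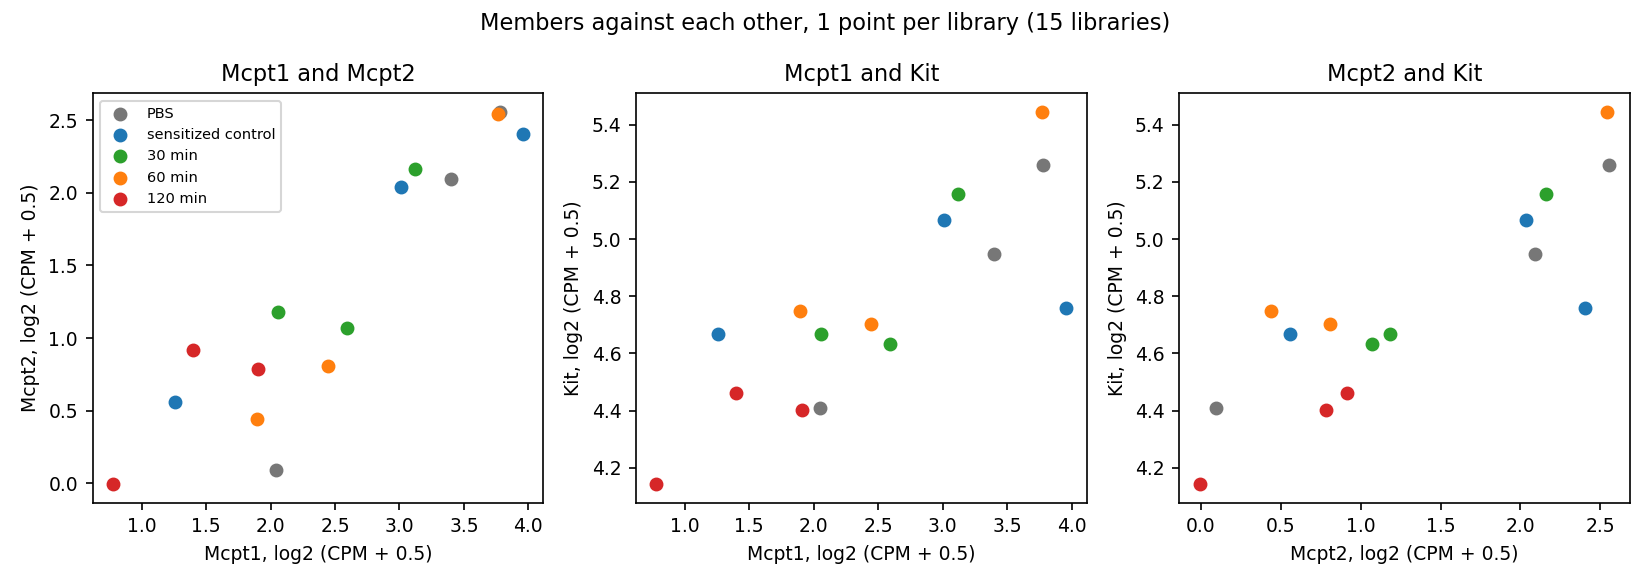
Mcpt1, Mcpt2 and Kit plotted against each other as log2 (CPM + 0.5), 1 point per library, coloured by group (15 libraries). The points rise together in each panel (r of 0.915, 0.813 and 0.862 from left to right), and points of a group other than 120 min are spread along the diagonal.

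The share of Mcpt2 in the reads of both proteases is given with its counting error, and its spread between libraries was not tested. Mcpt2 made up 27.7% of the 2464 reads of both genes over all libraries (682 reads; 25.9% to 29.5%, exact binomial 95% interval). By library the share ran from 13.5% (6.68% to 23.5%) in PBS replicate 2 to 39.4% (27.6% to 52.2%) in replicate 2 at 120 min. The intervals of these 2 libraries did not overlap, and that of PBS replicate 2 was the only one that did not reach the overall share.

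Among all 14967 other genes tested, those most like each member over the 15 libraries were found by r of log2 CPM, leaving out numbered gene models and antigen receptor segments, as a description only. For Mcpt1 they were Mcpt2 (0.91), Ccdc30 (0.87), Tmem44 (0.87), Trim34b (0.86) and Sidt1 (0.86). For Mcpt2 they were Mcpt1 (0.91), Ccdc30 (0.87), Kit (0.86), Wdr47 (0.86) and Dsel (0.86). For Kit they were Sytl4 (0.94), Ccpg1 (0.91), Prkar1b (0.89), Cadm1 (0.89) and Mxd4 (0.88). An r over 0.8 was reached by 28 genes with Mcpt1, 32 with Mcpt2 and 85 with Kit, and Ccdc30 was near the limit of detection, at a mean of 0.319 CPM. Of the other mast cell genes, Gata2, a transcription factor of mast cells and their precursors, was the most like the proteases, with r of 0.77 for Mcpt1 and 0.81 for Mcpt2, from 3 to 31 counts per library. Hdc, which makes histamine, did not share the pattern (r of -0.22 with Mcpt1 and -0.18 with Mcpt2).

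Many defining genes of mast cells other than the members were at or near 0. Of a list of 20 other mast cell genes, 9 were tested, and none passed in any comparison. Tpsab1, a tryptase, and Mrgprb1 and Mrgprb2, receptors of the connective tissue type, had 0 counts in all 15 libraries, where a count of 0 allows up to 3 counts, or 0.132 to 0.192 CPM. Cpa3, the mast cell carboxypeptidase, had 32 counts over all libraries (0 in 4 of them), Tpsb2, a further tryptase, 11, Cma1, a chymase, 6 and Mcpt4, another, 1. Fcer1a and Ms4a2, the α and β chains of the IgE receptor, had 12 and 20 counts and were at 0 in 9 and 8 libraries. Together these 9 genes gave 1 to 11 reads per library and 82 in all, beside 1782 of Mcpt1. Mean TPM was 0.0864 for Cpa3 and 7.60 for Mcpt1.

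**Figure D4:**
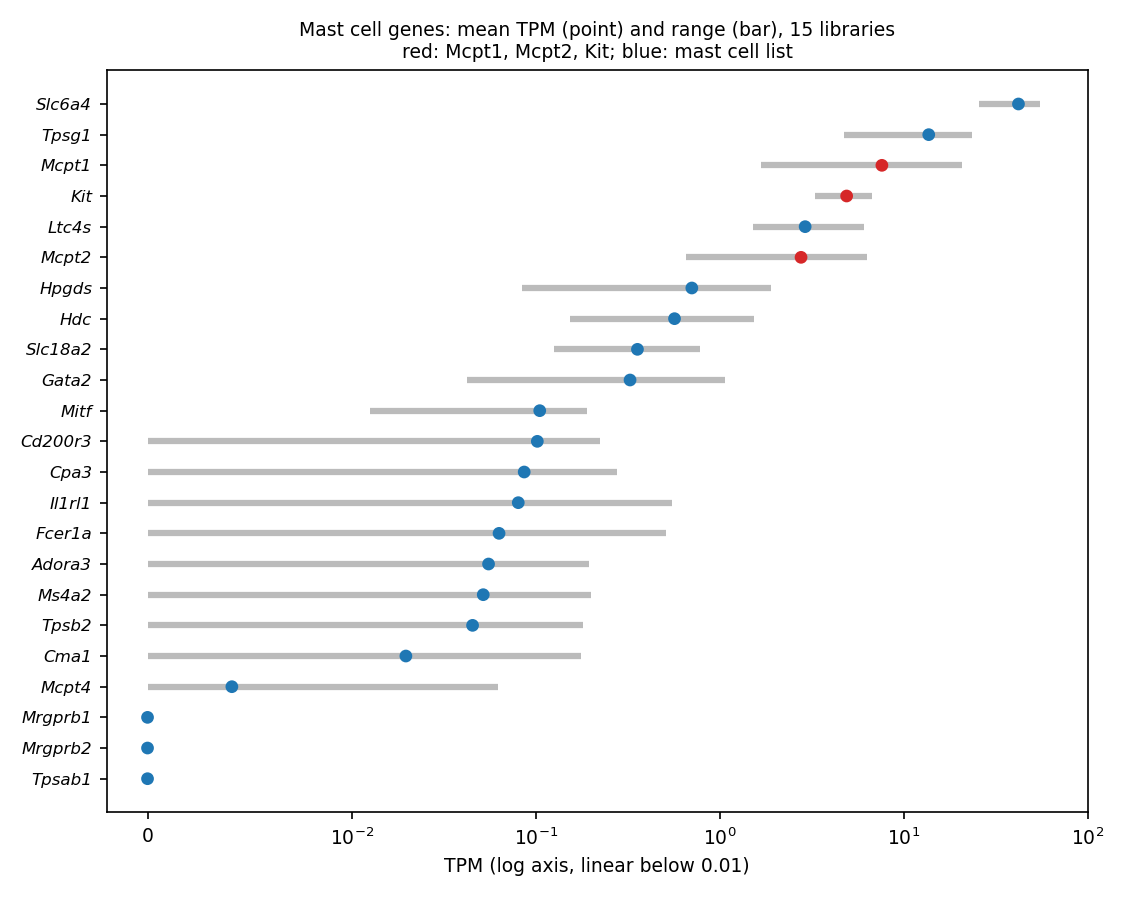
Mean TPM (points) and the range over 15 libraries (bars) of Mcpt1, Mcpt2, Kit (red) and 20 other mast cell genes (blue), on a log axis that is linear below 0.01. Mcpt1 (7.60), Kit (4.89) and Mcpt2 (2.76) lie well to the right of Cpa3 (0.0864), and Tpsab1, Mrgprb1 and Mrgprb2 are at 0.

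Other genes of the mast cell list had higher levels. Ltc4s and Hpgds are also among the tuft cell markers measured below. The part of mast cells in the levels of this list was not tested. Slc6a4, the serotonin transporter, which enterocytes carry too, had a mean TPM of 42.0 and r of -0.46 with Mcpt1. Tpsg1, a membrane-bound tryptase, had 13.7 TPM, Ltc4s (leukotriene C4 synthase) 2.91, Hpgds (a prostaglandin D2 synthase) 0.704, Hdc 0.567, Slc18a2 (a monoamine transporter of granules) 0.356 and Gata2 0.325. At 120 min against sensitized controls, 2 of the 9 tested genes had a positive and 7 a negative log2 fold change, with a median of -0.61 beside -0.01 over all genes. Hdc was at 1.11 ± 0.46 (SE, adjusted p = 0.225, edgeR) and Gata2 at -0.97 ± 0.82 (adjusted p = 0.578). At 30 and 60 min the list's medians were -0.02 and -0.08.

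Most neighbours of Mcpt1 and Mcpt2 in the chymase cluster had few reads. Of its 15 listed genes, Mcpt1, Mcpt2 and Gzmb were tested. Mcpt9, which lies between the 2 members, had 34 counts over all libraries, Cma2 38, Gzmc 33, Mcpt8, a protease of basophils, 3, and Ctsg (cathepsin G) 1. Gzmb, the granzyme B of cytotoxic and intraepithelial lymphocytes, had 30 to 847 counts per library and a mean TPM of 8.66. Its log2 fold change at 120 min was -1.92 ± 1.01 (SE, adjusted p = 0.354, edgeR).

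Kitl, which encodes stem cell factor, the ligand of Kit, varied little between groups. Its means were 46.4 ± 2.06 CPM (SD, n = 3) in PBS mice, 49.7 ± 3.54 in sensitized controls, 46.9 ± 6.58 at 30 min, 45.4 ± 4.64 at 60 min and 48.3 ± 2.50 at 120 min. At 120 min its log2 fold change was -0.04 ± 0.12 (SE, adjusted p = 0.902, edgeR). Its r with Kit was -0.41 over the 15 libraries.

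Of 22 genes for growth, homing and protease induction, 16 were tested and none passed in any comparison. Il9 and Il3, growth cytokines of mucosal mast cells, had 0 counts in every library, Il13 2 counts and Il4 15 in all. The highest levels on the list were those of Smad4 (26.4 TPM) and Smad3 (9.81), which carry TGF-β signals, Il4ra (21.2), Kitl (12.0), Il33, the alarmin (10.1), and Tgfbr1 (5.05). At 120 min 7 of the 16 had a positive and 9 a negative log2 fold change (median -0.07). Smad4 was at 0.46 ± 0.14 (SE, adjusted p = 0.114, edgeR), and Itgb7 and Itgae, integrin chains of gut leukocytes, at -1.66 ± 0.75 and -1.73 ± 0.82 (adjusted p = 0.276 and 0.303, edgeR).

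Of the 14 genes of IgE receptor signalling, 12 were tested and none passed. The highest by length were Lyn (8.22 TPM), the kinase that starts the signal, Fcer1g (6.58), the γ chain, which many leukocytes share, Syk (5.44), Plcg1 (4.80), Gab2 (4.08) and Plcg2 (3.32). At 120 min 9 of the 12 had a negative log2 fold change, with a median of -1.12 beside -0.01 over all genes. Fcer1g was at -1.24 ± 0.60 (SE, adjusted p = 0.296, edgeR) and the adaptor Lat2 at -1.50 ± 0.58 (adjusted p = 0.193), while Syk was at -0.48 ± 0.25 and Lyn at -0.14 ± 0.16. At 30 min 10 of the 12 were positive (median 0.30), in a comparison that shares its controls. Of the 14 leukocyte markers described below, 11 were positive at 30 min (median 0.14) and 13 negative at 120 min (median -1.45). Fcer1a and Ms4a2 were not among the 12 tested genes. The part of other leukocytes in the values of this list was not tested.

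Of 19 genes of mediator synthesis and reception, 14 were tested and none passed. Aoc1, the diamine oxidase that breaks down histamine in enterocytes, had by far the highest level (182 TPM), followed by F2rl1 (35.9), the receptor that mast cell tryptase cleaves, Ltc4s, Alox5ap (1.55) and Cysltr2 (1.17). At 120 min 2 of the 14 were positive and 12 negative (median -0.44), with Alox5ap, the 5-lipoxygenase-activating protein, at -1.51 ± 0.64 (SE, adjusted p = 0.232, edgeR) and Aoc1 at -0.43 ± 0.23 (adjusted p = 0.353). Genes of Kit signalling, led by Shc1 (32.5 TPM), Pik3r1 (23.1), Grb2 (20.8), Ptpn11 (12.6) and Socs6 (10.9), were all tested and none of the 14 passed. At 120 min their median was -0.04, with 6 positive and 8 negative.

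Markers of other cells were measured beside the members. Epithelial markers of the labelled cell type were abundant, with Epcam at a mean of 636 TPM and Vil1 at 485 TPM. Of the 8 epithelial markers, 7 had a positive log2 fold change at 120 min against sensitized controls (median 0.14) and all 8 against 60 min (median 0.37). Krt20, a keratin of villus cells, was the 1 epithelial marker that passed in any comparison, higher at 120 than at 60 min (log2 fold change 0.68 ± 0.15 (SE), adjusted p = 0.0404, edgeR). In that comparison 1.12% of all genes were called. The summed level of 14 leukocyte markers was 191 to 238 CPM in PBS mice, 89.3 to 331 in sensitized controls, 60.7 to 304 at 30 min, 75.7 to 235 at 60 min and 38.0 to 90.6 at 120 min. That of 10 intraepithelial lymphocyte markers was 136 to 177, 53.5 to 238, 32.9 to 218, 29.4 to 138 and 18.2 to 56.2 CPM in the same groups. At 120 min 13 of the 14 leukocyte genes and all 10 of the lymphocyte genes had negative log2 fold changes against sensitized controls (medians -1.45 and -1.73), and none passed. In bulk samples, fewer cells of a type and less RNA per cell cannot be told apart, and the part of such cells in the members' values was not tested.

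Against the mean log2 level of the leukocyte list over the 15 libraries, Pearson's r was 0.688 for Kit (permutation p adjusted 0.00702), 0.607 for Mcpt1 (permutation p adjusted 0.0208) and 0.542 for Mcpt2 (permutation p adjusted 0.0399). By rank none passed: Spearman's rho was 0.532, 0.421 and 0.407 (permutation p adjusted 0.0665, 0.134 and 0.134). Without the 2 libraries farthest from the median of the list, r was 0.530, 0.456 and 0.368, so these relations rested partly on them. With group means removed, r was 0.614 for Kit (permutation p adjusted 0.0236), 0.393 for Mcpt1 and 0.407 for Mcpt2 (permutation p adjusted 0.146 for both). The permutation mixed libraries across groups without allowing for the means removed, so these p-values are too small. No verdict on Kit within groups is drawn from them.

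Epithelial types that can hold Kit were also measured. Of 12 Paneth and goblet markers, 11 were tested, and all 11 had negative log2 fold changes at 120 min (median -0.82; none passed). Their summed level was 8042 to 9245 CPM at 120 min, below the 11137 to 17359 CPM of the sensitized controls. Of all single genes tested, 13.3% also lay without overlap below these controls at 120 min. No such share was computed for summed levels. Against 60 min, 7 of the 11 were negative and 4 positive, beside 1.12% of all genes called. Of these, Itln1 passed (log2 fold change -1.72 ± 0.27 (SE), adjusted p = 0.0190, edgeR), as did Ang4, also of Paneth cells (-2.15 ± 0.43, adjusted p = 0.0404). Against 30 min all 11 were negative and Itln1 passed (-1.29 ± 0.27, adjusted p = 0.0420, edgeR), beside 1.01% of all genes called. Over the 15 libraries, r with Kit ran over the 11 markers from 0.082 for Tff3 to 0.82 for Fcgbp, both of goblet cells. The likeness was not particular to Kit: r of Fcgbp was 0.72 with Mcpt1 and 0.78 with Mcpt2, and that of Tff3 0.23 and 0.24. Of 10 tuft cell markers other than Kit, 6 were tested, with 1 positive and 5 negative at 120 min (median -0.65, none passed). Their summed level was 5.12 to 8.19 CPM at 120 min and 8.72 to 10.9 in sensitized controls, beside the same 13.3% of single genes. Markers of interstitial cells of Cajal other than Kit stood at 8.05 to 13.2 CPM at 120 min and 9.64 to 15.5 in sensitized controls. Stromal and endothelial markers were at 233 CPM in replicate 1 at 30 min and between 2.27 and 11.4 in all other libraries. Without that library, Kit at 30 min was at -0.18 (log2), and the 3 relations among members had r of 0.915, 0.811 and 0.851. The part of any of these cells in the levels of Kit or the proteases was not tested.

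Kit is transcribed in 2 main coding forms that differ by 12 bases, 4 codons, at the end of exon 9 and encode receptors with and without 4 extra residues near the membrane. The junction is shown because the estimated reads divide between these forms; the extra bases, in capitals, lie at chr5:75639147-75639158 of GRCm38.
Kit with the extra bases: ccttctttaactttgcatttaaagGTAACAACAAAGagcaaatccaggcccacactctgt
Kit without the extra bases: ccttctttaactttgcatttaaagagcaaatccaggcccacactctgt
The form with the extra bases took 9.90% to 76.8% of the estimated reads of both forms by library. Group means were 41.6% ± 7.79 (SD, n = 3) in PBS mice, 21.4% ± 10.3 in sensitized controls, 40.3% ± 19.1 at 30 min, 31.3% ± 17.7 at 60 min and 42.5% ± 31.6 at 120 min. Its range was 34.3% to 49.8% in PBS mice, 9.90% to 29.7% in sensitized controls, 18.4% to 53.8% at 30 min and 14.5% to 49.8% at 60 min. Among the libraries at 120 min the share was 14.5%, 36.3% and 76.8%, so the spread within that group exceeded any difference between group means. No test was made on these shares. The annotated forms also differ in length at their ends (5214 and 5241 bases in all), so reads elsewhere in the transcript enter the split as well. Other Kit transcripts took at most 11.3% of the reads of the gene.

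**Figure D5:**
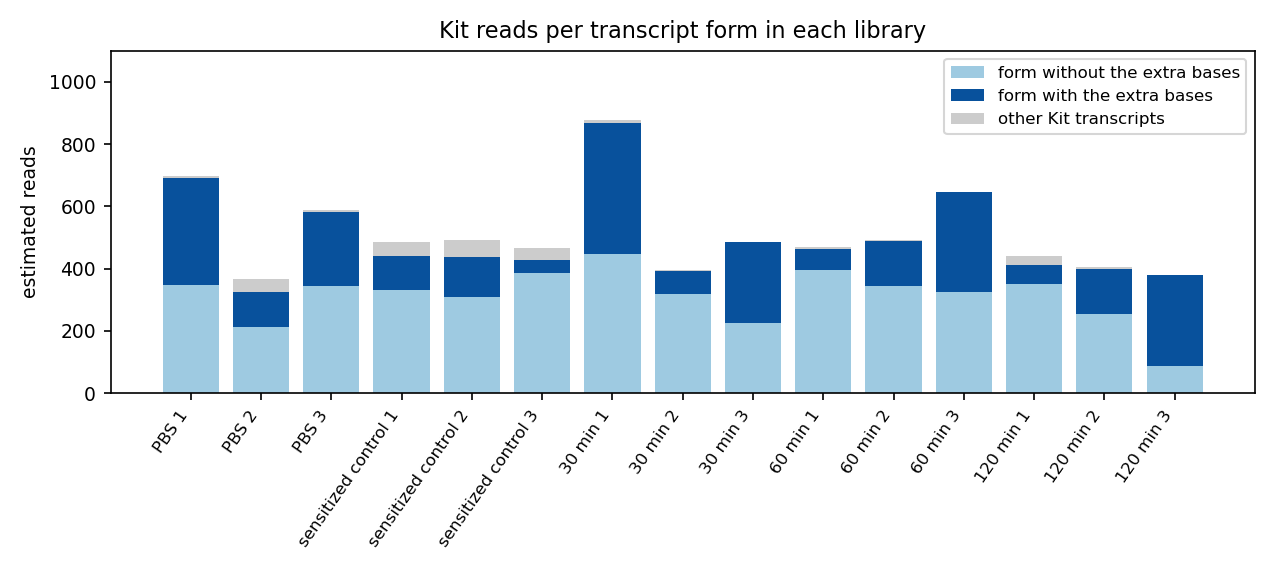
Estimated reads of Kit in each of 15 libraries, stacked as the form without the extra bases, the form with them and other Kit transcripts (linear axis from 0). The form without them holds the larger part in most libraries, but in replicate 3 at 120 min the form with them takes 76.8% of the reads of both forms, against 9.90% in sensitized control replicate 3.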

How the data were processed

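Polyadenylated RNA of 15 libraries was sequenced as paired reads of 151 bp. The tools were cutadapt 1.18 and Salmon 1.2.1, with mm10 as the build, per the submitters' processing notes, and the transcript release is not stated there. The authors' tables hold, per the file headers, estimated counts and TPM per transcript, with lengths and effective lengths in bases. Here, transcripts were summed to genes with GENCODE M21 (1115 of 139058 transcripts, 0.374% to 0.602% of counts, matched no gene) and rounded. Genes kept by edgeR's filterByExpr (14968) entered 1 quasi-likelihood fit of all 15 libraries (edgeR 4.0.16, TMM, robust, 10 residual degrees of freedom), with p-values adjusted by Benjamini-Hochberg over all genes and a threshold of 0.05. Relations and single values used permutation tests of log2 (CPM + 0.5). TPM served for levels between genes. DESeq2 1.42.0, other scalings and filters, a length correction and leaving out libraries were alternatives. Sequences come from the GENCODE M21 transcripts. The members and lists were chosen with earlier results of these data known. Genes named were the members, chymase cluster genes with a count, genes of each list past the threshold or among the 6 highest by TPM, and the 5 genes most like each member; Hdc, Gata2, Slc18a2, Itgae, Itgb7, Lat2, Fcgbp, Tff3 and the mast cell genes near 0 were named after their values were seen. The labels do not say that libraries of a group came from separate litters or days, so p-values measure the spread between these libraries.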

Additional observations from a re-analysis of the deposited data

How the results depend on the processing

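No member passed the threshold in any of 325 alternative values of the 15 fold changes, of which 21 changed direction. With a correction for transcript length, Kit turned to 0.10 (log2) for sensitized control against PBS, -0.19 at 30 min and -0.027 at 60 min. The permutation difference of Mcpt2 between sensitized controls and PBS mice (0.09) was -0.11 on untransformed CPM. Leaving out 1 library at a time gave, for sensitized against PBS, -0.95 to 0.33 for Mcpt1, -0.55 to 0.52 for Mcpt2 and -0.28 to 0.14 for Kit. At 30 min the ranges were -0.96 to 0.32, -0.88 to 0.13 and -0.18 to 0.13, and at 60 min -0.98 to 0.62, -1.54 to 0.14 and -0.10 to 0.32. At 120 min they were -2.37 to -1.09, -2.03 to -1.13 and -0.60 to -0.38, all negative. For the mean of 3 times they were -1.33 to -0.049, -1.18 to -0.29 and -0.20 to 0.016. The adjusted p at 120 min ran over all alternatives from 0.115 to 0.532 for Mcpt1, 0.197 to 0.663 for Mcpt2 and 0.125 to 0.638 for Kit. DESeq2 called 6, 6, 189 and 846 genes (edgeR 0, 0, 1 and 188) for sensitization and the 3 times, 172 (edgeR 0) for their mean, 951 (edgeR 168) for 120 against 60 min and 838 (edgeR 151) for 120 against 30 min. The relations among the members passed in each alternative, though the permutation with group means removed did not allow for those means and gives p-values that are too small. Those with the leukocyte list did not all pass: centred on group means, r was 0.393 for Mcpt1 and 0.407 for Mcpt2, and on log2 (TPM + 0.5), an alternative chosen after seeing the data, 0.544 for Mcpt1, 0.451 for Mcpt2 and 0.460 for Kit. Also chosen after seeing the data, r with Mcpt2 was 0.498 without replicate 1 at 30 min and 0.509 without replicate 3 at 60 min. The causes were not tested. No paired analysis was possible because the labels give no replicate numbers shared between groups. With 10 to 279 reads per library, changes of the proteases within the standard errors given were not detectable at this depth and spread. Larger ones could be missed too, as the log2 fold change of -1.89 for Mcpt1 at 120 min did not pass.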
